A study of Homo sapiens with 4 samples.

Results

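Iron uptake, storage and export were examined through 10 genes, TFRC, TFR2, FTH1, FTL, SLC40A1, SLC11A2, HAMP, NCOA4, IREB2 and ACO1, chosen by name among the 61541 genes of the deposited table. The genes were followed in MHCC97H, an established human hepatocellular carcinoma (HCC) cell line, in 2 libraries of cells carrying a control short hairpin RNA (shCon) and 2 libraries of cells carrying a hairpin against UBXN1 (shUBXN1, UBXN1 knockdown). UBXN1 encodes a ubiquitin-binding cofactor of the VCP ATPase. By the study's methods the hairpins were carried by the lentiviral vector pLKO.1, so the control cells hold a vector and a hairpin too. The methods call the control of the MHCC97H RNA-seq data shRFP, where the labels say shCon. Which of the hairpins against UBXN1 the sequenced cells carried is not stated in the sources used here. All 10 genes had a row in the table. Of these, 8 passed the filter on low counts and were tested, and TFR2 and HAMP did not.

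Cells take up iron bound to transferrin through the transferrin receptor, move it out of endosomes through the transporter DMT1, store it inside the ferritin shell and release it through ferroportin. Iron regulatory proteins bind hairpins called iron-responsive elements (IREs) in mRNAs of this set when iron is scarce, which protects the mRNA of the transferrin receptor and blocks translation of ferritin and ferroportin mRNAs. Hepatocytes are known as the main iron store of the body and as the source of hepcidin, the hormone that sends ferroportin to degradation.

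The libraries held 23373700 to 27380508 counts. UBXN1 was at 67.1 and 77.3 CPM (counts scaled to a common library size with edgeR's TMM method) in shCon and at 16.8 and 18.5 CPM in shUBXN1, which edgeR's quasi-likelihood test called lower (log2 fold change -2.03, adjusted p = 9.98e-10, standard error 0.0963). The p-values were adjusted over 16863 genes by the Benjamini-Hochberg method. Across all genes tested, 28% were called higher and 28.2% lower at an adjusted p under 0.05, together 56.2%, so a call is a common event in this comparison. Among epithelial and hepatocyte markers, KRT8, KRT18 and HNF4A were at 46.9 CPM or more in every library, whereas AFP stayed at 5.89 CPM or less, EPCAM under 1 CPM and GPC3 at 0 counts. Of 12 markers of this list that were tested, 7 were lower and 2 higher in shUBXN1. The summed level of all 13 was 4708 and 4872 CPM in shCon and 3588 and 4196 CPM in shUBXN1, and its part in the results was not tested. Among markers of other cell types, PTPRC and CD3E (leukocytes), CDH5 (endothelium), ACTA2 (stellate cells) and HBA1 (erythroid cells) were at 0.255 CPM or less in every library, but other markers of these lists were not. CD68 was at 70.5 to 88.3 CPM and PECAM1 at 33.2 to 43.0 CPM. LUM fell from 31.7 and 32.3 CPM in shCon to 13.9 and 16.7 CPM in shUBXN1, and DCN from 0.638 and 0.553 CPM to 0.0808 and 0.0427 CPM. KDR rose from 14.6 and 15.8 CPM in shCon to 48.2 and 56.6 CPM in shUBXN1, and COL1A1 from 0.375 and 0.170 CPM to 2.34 and 2.52 CPM. Of the tested markers, 2 of 4 were lower and 0 higher for leukocytes, 2 of 3 higher and 0 lower for endothelium, and 2 of 3 lower and 1 higher for fibroblasts, while no erythroid marker was tested. The summed lists were at 84.5 and 90.5 CPM in shCon against 74.3 and 72.0 CPM in shUBXN1 for leukocytes, at 48.4 and 49.9 CPM against 92.6 and 99.5 CPM for endothelium, at 33.1 and 33.2 CPM against 17.2 and 19.9 CPM for fibroblasts, and at 0.553 CPM or less for erythroid cells. The part of these lists in the results was not tested. The libraries are 2 per group, and nothing in the labels says that they came from separate cultures, so the p-values measure the spread between these libraries, which may be technical.

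The IREs were looked for in the protein-coding transcripts of GENCODE v44 (hg38), since they tie the transferrin receptor, both ferritin chains and ferroportin to the same pair of RNA-binding proteins. The pattern, read on the transcript strand, was a C, 5 bases of any kind, the loop CAGTGN and 5 further bases, where the 5 bases before the loop had to pair with the 5 after it (Watson-Crick or G with T). Since all 5 pairs had to form, an IRE that pairs otherwise is missed. The genes may thus hold more IREs than are listed. The pattern was found in the untranslated regions of 4 of the 10 genes, at 7 places. Each is printed 5′ to 3′ as DNA with 5 further bases on either side, and capitals mark the loop.
FTH1, 5′ UTR, minus strand, chr11:61967575-61967601: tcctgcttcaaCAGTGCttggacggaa
FTL, 5′ UTR, plus strand, chr19:48965336-48965362: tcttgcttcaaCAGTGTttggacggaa
SLC40A1, 5′ UTR, minus strand, chr2:189580662-189580688: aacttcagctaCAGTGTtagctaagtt
TFRC, 3′ UTR, minus strand, chr3:196050980-196051006: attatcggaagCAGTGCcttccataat
TFRC, 3′ UTR, minus strand, chr3:196050576-196050602: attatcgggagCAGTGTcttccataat
TFRC, 3′ UTR, minus strand, chr3:196050511-196050537: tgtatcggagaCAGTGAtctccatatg
TFRC, 3′ UTR, minus strand, chr3:196050464-196050490: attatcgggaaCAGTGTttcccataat
The hairpin was in 7 of 8 protein-coding transcripts of FTH1, 1 of 1 of FTL, 1 of 5 of SLC40A1 and 10 of 11 of TFRC. The FTH1 and FTL hairpins differ at 2 of 27 bases, and the FTH1 and SLC40A1 hairpins at 14. The 4 TFRC hairpins differ from one another at 2 to 10 bases. Among canonical transcripts of all protein-coding genes, 0.0988% of 19224 with a 5′ UTR and 0.629% of 19229 with a 3′ UTR hold the pattern in that region. No match was found in SLC11A2, TFR2, NCOA4, HAMP, ACO1 or IREB2. This says only that no hairpin with all 5 pairs lies in their annotated untranslated regions, not that these genes hold no IRE. A match is a description of the sequence, and the counts are sums per gene, so they do not separate SLC11A2 transcripts with different 3′ ends.

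Levels between genes were compared per length, as TPM, a share of all transcripts computed from the deposited counts and gene lengths. The order in shCon was FTL, FTH1, TFRC, NCOA4, SLC40A1, SLC11A2, ACO1, IREB2, HAMP and TFR2. FTL, the light chain of ferritin, stood at 17909 ± 573 TPM (SD, n = 2) and FTH1, the heavy chain that oxidizes iron, at 11223 ± 265 TPM (SD, n = 2). Both ferritin chains ranked among the 6 highest of the genes tested by this measure in every library. TFRC followed at 286 ± 18.1 TPM, rank 464 and 509 in the shCon libraries. NCOA4 (128 ± 4.92 TPM) and SLC40A1 (116 ± 1.77 TPM) came next, then SLC11A2 (53.8 ± 4.11 TPM) and ACO1 (53.3 ± 3.92 TPM), whose levels overlapped between the shCon libraries, then IREB2 (32.2 ± 2.20 TPM). In shUBXN1 the first 5 places were the same, and ACO1 (55.3 ± 4.52 TPM) stood above IREB2 (36.2 ± 2.06 TPM) and SLC11A2 (36.1 ± 2.39 TPM), which overlapped.

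**Figure D1:**
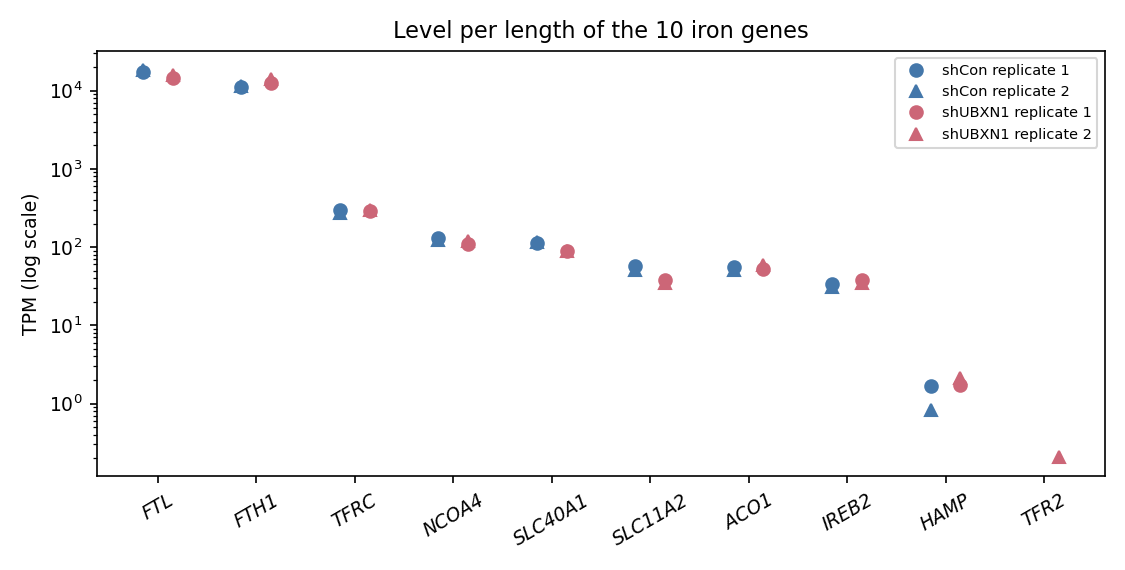
Level per length (TPM, log scale) of the 10 genes in each library, ordered by the shCon mean, with circles for replicate 1 and triangles for replicate 2. FTL and FTH1 lie at 11036 TPM or more and TFRC between 273 and 300 TPM, and TFR2 has a point in 1 library because the other 3 had 0 counts.

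The knockdown was then compared with the control for each gene. The exporter SLC40A1 and the transporter SLC11A2 fell in shUBXN1, to 74.9% and 64.3% of their shCon CPM, and FTL and NCOA4 fell to 81.4% and 85.5%. TFRC, FTH1, ACO1 and IREB2 were not called in either direction. Of the 8 genes tested, 4 were lower and 0 higher, beside 28.2% lower and 28% higher among all genes, so the number called in either direction was close to what the 56.2% of all genes gives. With a 2-fold change and an unadjusted p under 0.05 as the rule, 0 of the 8 were called, beside 17.9% of all genes. The falls in SLC11A2 and SLC40A1 were called at an adjusted p under 0.05 in each of the 13 alternative fits, including each library left out, whereas the calls of FTL and NCOA4 were lost in 2 of 14 and 5 of 14. The CPM of the groups did not overlap for SLC11A2, FTL, NCOA4 and SLC40A1, all lower, and for IREB2, higher, beside 38.6% lower and 39.4% higher among all genes. The RNA is from bulk cells, so a lower level per cell and fewer cells with the mRNA cannot be told apart.

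**Figure D2:**
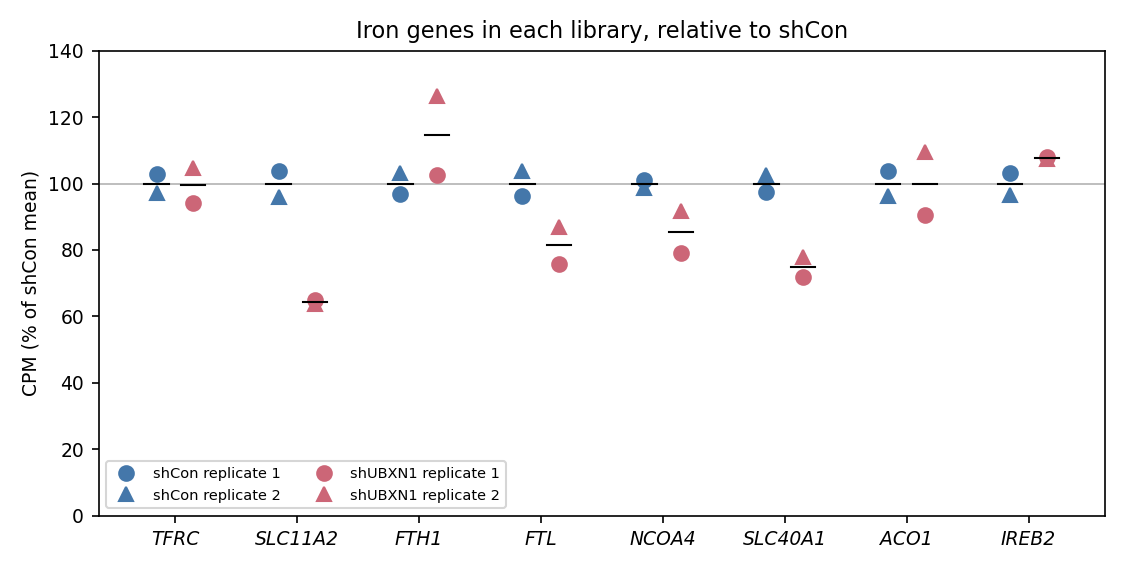
CPM of the 8 genes tested in each library, as a percent of the shCon mean of that gene, with black bars for the group means. Both shUBXN1 libraries lie below both shCon libraries for SLC11A2, FTL, NCOA4 and SLC40A1, while the groups overlap for TFRC, FTH1 and ACO1.

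Among the genes of uptake, TFRC (ENSG00000072274, chromosome 3, 196012511 to 196082153, minus strand) encodes the transferrin receptor that most cells use. TFRC was at 739 and 696 CPM in shCon and at 676 and 751 CPM in shUBXN1. The shUBXN1 libraries lay on either side of the shCon libraries. The log2 fold change was -0.0074, with a 95% interval of -0.19 to 0.17 (edgeR, adjusted p = 0.947). The sign changed with the scaling, to 0.076 with total counts, and with the library left out, to 0.036 without shCon replicate 1 and 0.063 without shUBXN1 replicate 1, never with a call.

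SLC11A2 (ENSG00000110911, chromosome 12, 50979401 to 51028566, minus strand) encodes DMT1, which carries ferrous iron across the endosomal and apical membranes. SLC11A2 was at 105 and 96.8 CPM in shCon and at 65.4 and 64.1 CPM in shUBXN1. The groups did not overlap and the gap between them was wider than either group's spread. It fell by 0.64 on the log2 scale (adjusted p = 6.03e-06, standard error 0.0753, edgeR), the largest change among the 8 genes tested. Leaving out any 1 library gave -0.71 to -0.58.

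TFR2 (ENSG00000106327, chromosome 7, 100620416 to 100642779, minus strand) encodes the second transferrin receptor, which senses transferrin in hepatocytes and erythroid precursors. No count fell on TFR2 in the shCon libraries or in shUBXN1 replicate 1, and 7 did in shUBXN1 replicate 2. A count of 0 allows up to 3 counts, or 0.113 to 0.128 CPM, in these libraries, and the 7 counts were 0.299 CPM. No test was made, and no fold is given, since the counts rest on 1 library.

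Ferritin stores iron in a shell of heavy and light chains. FTH1 (ENSG00000167996, chromosome 11, 61959718 to 61967634, minus strand) was at 4473 and 4766 CPM in shCon and at 4736 and 5844 CPM in shUBXN1. The first shUBXN1 library lay between the shCon libraries, and the second lay above both. It had a log2 fold change of 0.20 (95% interval -0.045 to 0.44, adjusted p = 0.153, edgeR). In TPM, which does not use the TMM scaling, the groups did not overlap, at 11036 and 11411 TPM in shCon and 12444 and 14257 TPM in shUBXN1. This value rests on the second shUBXN1 library: it was 0.34 (edgeR, adjusted p = 8.77e-07) without shUBXN1 replicate 1 and 0.021 (adjusted p = 0.753) without shUBXN1 replicate 2. FTH1 was also called higher with total count scaling (0.28), with limma on log2(TPM + 1) (0.25) and without the filter on low counts (0.19).

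FTL (ENSG00000087086, chromosome 19, 48965309 to 48966879, plus strand) was at 7490 and 8075 CPM in shCon and at 5903 and 6766 CPM in shUBXN1. Both shUBXN1 libraries were below both shCon libraries, and the groups were closer to each other than for SLC11A2. The fall was 0.30 on the log2 scale (log2 fold change -0.30, adjusted p = 0.0295, standard error 0.108, edgeR). Without shCon replicate 1 it was -0.35 (edgeR, adjusted p = 0.104) and without shCon replicate 2 it was -0.26 (adjusted p = 0.439), neither past the threshold. Without shUBXN1 replicate 1 it was -0.20 and without shUBXN1 replicate 2 it was -0.41, both past it. With the GC trend removed the fall was larger, at -0.45, and over all alternatives the adjusted p ran from 4.27e-07 to 0.439.

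The balance of the ferritin chains was followed within each library, where the scaling between libraries drops out. The ratio of FTL to FTH1 per length was 1.59 and 1.60 in shCon and 1.18 and 1.10 in shUBXN1. The shCon libraries were nearly equal, and both shUBXN1 libraries were lower, at 0.714 times the shCon mean. In an exact two-sided permutation test over the 4 libraries p was 0.333, the smallest that 2 against 2 can give. The sum of the chains did not separate the groups, with 28540 and 29725 TPM in shCon and 27137 and 29892 TPM in shUBXN1. Together the chains took 1.12% to 1.26% of all counts in the 4 libraries.

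**Figure D3:**
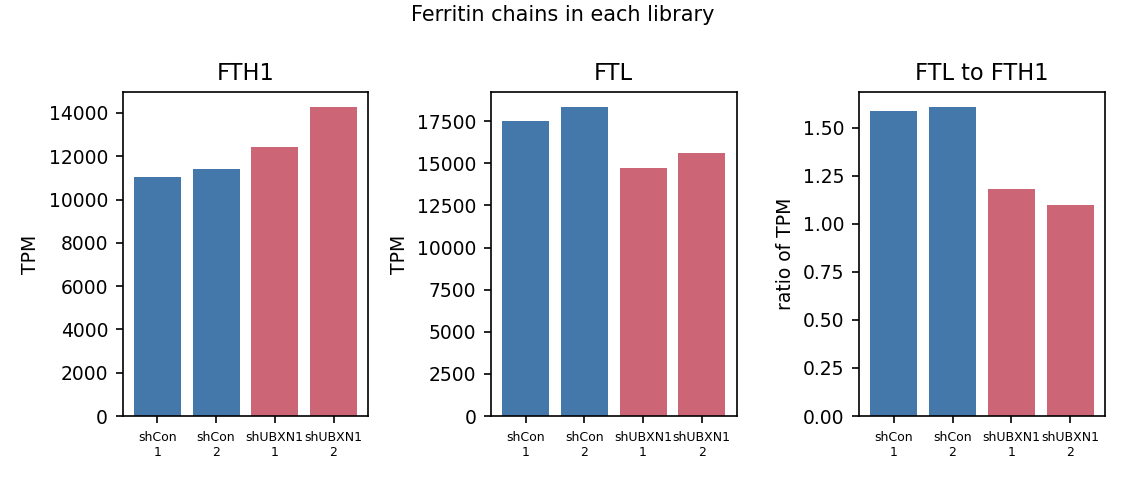
Bars show TPM of FTH1, TPM of FTL and the ratio of FTL to FTH1 in each of the 4 libraries, blue for shCon and red for shUBXN1, with all axes from 0. The ratio is 1.59 and 1.60 in shCon and 1.18 and 1.10 in shUBXN1.

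Ferritin genes have many processed pseudogenes, with which reads can be shared. Counts on 25 FTH1 pseudogenes summed to 21.5 to 40.2 per library, at most 0.0355% of the FTH1 count. The 16 FTL pseudogenes held at most 0.00268% of the FTL count. Adding these counts to the parent genes left the calls of FTH1 and FTL as they were. BEST1 lies on the opposite strand and covers 63.2% of the annotated FTH1 exon bases, and held 92.8 to 105 counts per library beside 111956 or more on FTH1. Whether the counting used strand is not stated, so part of either count may come from the other gene.

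NCOA4 (ENSG00000266412, chromosome 10, 46005088 to 46030623, minus strand) encodes the receptor that delivers ferritin to autophagy for iron release. NCOA4 was at 149 and 146 CPM in shCon and at 117 and 135 CPM in shUBXN1. The shCon libraries were close, the second shUBXN1 library lay just under them, and the groups did not overlap. Its log2 fold change of -0.23 passed the threshold (adjusted p = 0.0287, standard error 0.0817, edgeR). The call was lost without shCon replicate 1 (-0.21), without shCon replicate 2 (-0.26), without shUBXN1 replicate 1 (-0.13), with total count scaling (-0.14) and with the trend on GC content removed (-0.21). The ratio of FTH1 to NCOA4 per length was 83.9 and 91.6 in shCon and 114 and 121 in shUBXN1.

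Iron leaves cells through ferroportin, encoded by SLC40A1 (ENSG00000138449, chromosome 2, 189560590 to 189583758, minus strand). SLC40A1 was at 187 and 197 CPM in shCon and at 138 and 150 CPM in shUBXN1. The groups did not overlap. The fall was clear of the spread within groups (log2 fold change -0.42, adjusted p = 0.000308, standard error 0.0758, edgeR), and values with any 1 library left out ran from -0.49 to -0.36. Within a library, the ratio of SLC40A1 to TFRC per length was 0.383 and 0.428 in shCon and 0.308 and 0.301 in shUBXN1, again without overlap (exact permutation p = 0.333, the smallest possible). In all 6 ratios were computed, and not all of them separated the groups. The ratio of both ferritin chains together to TFRC was 95.5 and 109 in shCon and 93.1 and 99.6 in shUBXN1 (exact permutation p = 0.667), and that of TFRC to FTH1 was 0.0271 and 0.0239 against 0.0234 and 0.0211 (exact permutation p = 0.333).

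HAMP (ENSG00000105697, chromosome 19, 35280716 to 35285143, plus strand) encodes hepcidin. HAMP was hit 9 and 4 times in the shCon libraries and 8 and 10 times in the shUBXN1 libraries, which were 0.338 and 0.170 CPM against 0.323 and 0.427 CPM. The groups overlapped, and a difference was not detectable at this depth. The hormone's mRNA was at 0.427 CPM or less in every library of this line.

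The iron regulatory proteins are encoded by ACO1 (IRP1, which is a cytosolic aconitase when it holds an iron-sulfur cluster) and IREB2 (IRP2, which is degraded when iron is plentiful). ACO1 (ENSG00000122729, chromosome 9, 32384603 to 32454769, plus strand) was at 99.1 and 92.0 CPM in shCon and at 86.5 and 105 CPM in shUBXN1. The shUBXN1 libraries lay on both sides of the shCon libraries. The log2 fold change was -0.0012 (95% interval -0.19 to 0.19, adjusted p = 0.992, edgeR), and its sign changed in 5 of 13 alternatives without a call, among them without shCon replicate 1 (0.053) and without shUBXN1 replicate 1 (0.13). IREB2 (ENSG00000136381, chromosome 15, 78437431 to 78501453, plus strand) was at 105 and 98.2 CPM in shCon and at 110 and 109 CPM in shUBXN1. Its groups did not overlap, as for 78% of all genes tested, but the log2 fold change of 0.11 (95% interval -0.048 to 0.26) was not past the threshold (adjusted p = 0.225, edgeR) and was called only with total count scaling (0.19). The ratio of IREB2 to ACO1 per length was 0.603 and 0.608 in shCon and 0.723 and 0.595 in shUBXN1, which overlapped (exact permutation p = 1). The mRNAs of the regulators say nothing of how much of either protein binds RNA.

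**Figure D4:**
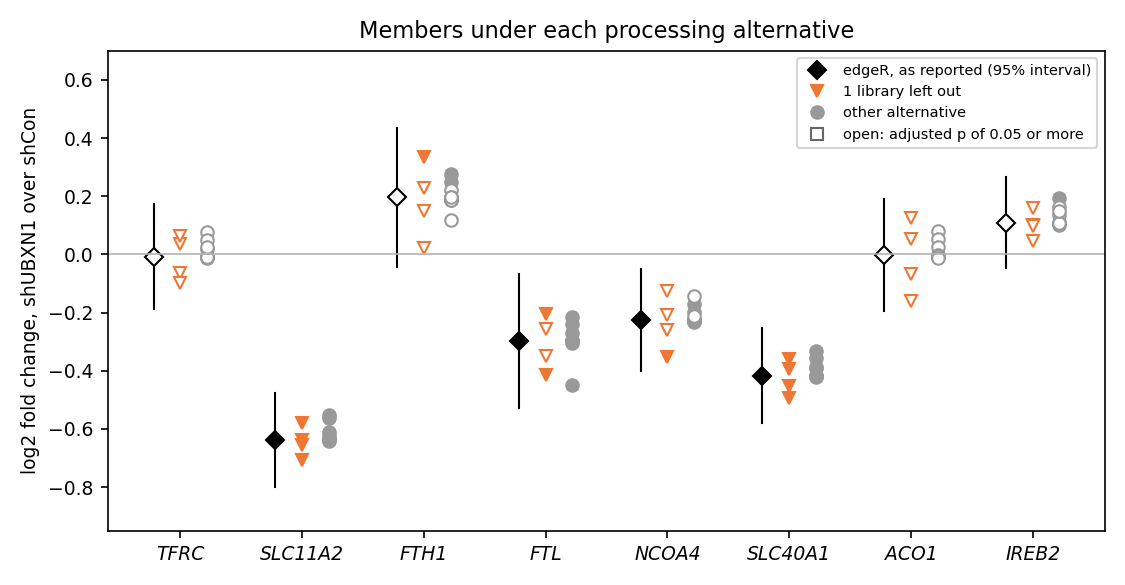
Log2 fold change of shUBXN1 over shCon for the 8 genes tested, with the edgeR value and its 95% interval (black), the values with 1 library left out (orange) and the other alternatives (grey), filled where the adjusted p was under 0.05. SLC11A2 and SLC40A1 are filled throughout, FTL and NCOA4 lose the call when some libraries are left out, and TFRC and ACO1 scatter around 0.

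The wider iron pathway was described with 8 lists that hold 126 genes outside the 10, of which 114 were tested. Of these, 29 were higher and 41 lower in shUBXN1, a median log2 fold change of -0.11, beside 28% and 28.2% called and a median of 0.016 among all genes. By the rule of a 2-fold change, 5 were higher and 8 lower, beside 11.8% and 6.09% of all genes. The values are from the same edgeR fit.

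In the list of iron transport and reduction, 9 of 16 tested genes were lower and 4 higher, with a median log2 fold change of -0.46. TF, which encodes transferrin, the plasma carrier of iron, was at 103 and 92.4 CPM in shCon and at 25.6 and 24.4 CPM in shUBXN1. Both shUBXN1 libraries were far below both shCon libraries (log2 fold change -1.96, adjusted p = 4.30e-10). The fall was not particular to TF. Among plasma protein genes of the hepatocyte markers, ALB (-1.97), APOB (-1.85) and TTR (-3.08, at 1.45 CPM or less) were lower too. SERPINA1 was higher (0.40), and AFP and APOA1 were not called. Whether the fall of TF is part of such a change was not tested. Of the STEAP metalloreductase family, STEAP1, STEAP2 and STEAP3 fell, and STEAP4 was not tested. Nor was CYBRD1, a ferric reductase gene outside that family, and both had at most 2.03 counts in any library. STEAP2 was at 84.1 and 77.9 CPM against 27.7 and 23.6 CPM (log2 fold change -1.66), and STEAP1, whose own reductase activity is uncertain, had a log2 fold change of -1.49. STEAP3, the endosomal ferrireductase that works beside TFRC and DMT1, fell less, from 109 and 114 CPM to 80.5 and 79.6 CPM (-0.48, adjusted p = 5.91e-05). CP, which encodes the ferroxidase ceruloplasmin that works with ferroportin, fell by 0.45 on the log2 scale but was not called by DESeq2 (-0.45), with total counts (-0.36) or by limma on log2(TPM + 1) (-0.39). SLC39A14, which encodes the carrier ZIP14 for iron that is not bound to transferrin, rose from 121 and 115 CPM to 143 and 135 CPM (0.24, adjusted p = 0.0144), a call lost without shCon replicate 2 (0.18) and with the GC trend removed (0.19). The list also holds TTYH1, a protein of the tweety family of membrane channels whose place in iron transport is uncertain, among those higher. It was at 0.338 and 0.213 CPM in shCon and at 1.17 and 1.32 CPM in shUBXN1.

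For the control of hepcidin, 9 of 22 tested genes were lower and 6 higher, with a median of -0.060. ID1, a target gene of BMP and SMAD signaling, fell from 479 and 505 CPM to 159 and 157 CPM (log2 fold change -1.64, adjusted p = 8.42e-10). ATOH8, a transcription factor of the same pathway, fell by 1.26 on the log2 scale. SMAD7, an inhibitor induced by this pathway, rose from 25.8 and 27.2 CPM to 32.2 and 31.6 CPM (0.27, adjusted p = 0.0206). The SMAD7 call was lost without shCon replicate 1 (0.23), without shCon replicate 2 (0.29), by DESeq2 (0.26) and with the GC trend removed (0.093). SMAD6, the other inhibitory SMAD, fell from 77.8 and 72.6 CPM to 51.6 and 49.2 CPM (-0.58, adjusted p = 2.00e-05). The ligand gene BMP6 was at 42.3 and 36.3 CPM against 32.8 and 37.0 CPM and was not called (-0.17, adjusted p = 0.146), except without shUBXN1 replicate 2 (-0.28) and with the GC trend removed (-0.32). BMP2, another BMP ligand gene of this list, fell from 31.4 and 33.6 CPM to 16.0 and 17.2 CPM (-0.97, adjusted p = 1.45e-06). HFE, the hemochromatosis gene whose product binds TFRC, fell from 9.71 and 9.28 CPM to 5.05 and 6.28 CPM (-0.75, adjusted p = 0.00176). STAT3, which carries the signal of interleukin 6 to HAMP, rose from 103 and 97.9 CPM to 236 and 246 CPM (1.26, adjusted p = 6.79e-09), and IL6 itself had 0 counts in all 4 libraries. TMPRSS6, a protease that lowers hepcidin, was at 0.404 CPM or less in every library and was not tested.

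**Figure D5:**
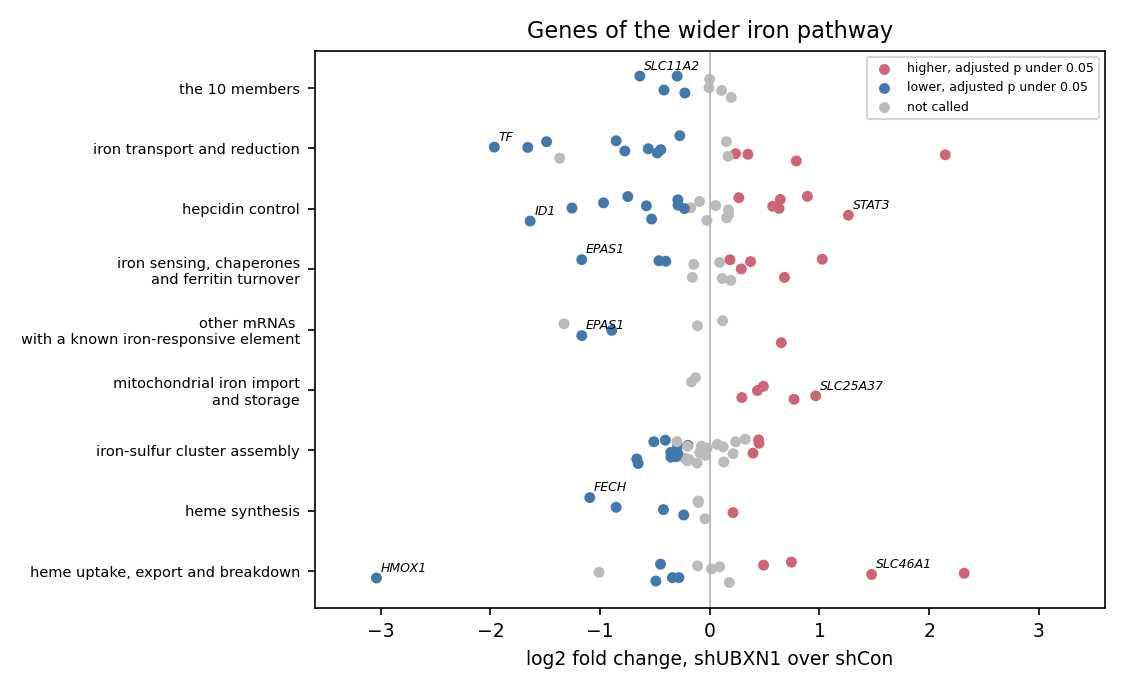
Each point is a tested gene of the 10 or of a wider iron list, placed by its log2 fold change of shUBXN1 over shCon and coloured by its call at an adjusted p under 0.05, with vertical scatter for legibility. HMOX1 lies farthest to the left at -3.04. The called genes in the row for mitochondrial iron import and storage all lie to the right of 0.

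Among genes of iron sensing, chaperones and ferritin turnover, 5 of 13 tested were higher and 3 lower. FBXL5, the iron-sensing ubiquitin ligase subunit that removes IRP2, rose from 34.8 and 36.7 CPM to 42.8 and 44.5 CPM (0.29, adjusted p = 0.00827), a call lost without shCon replicate 1 (0.25) and without shCon replicate 2 (0.31). HERC2, which encodes the ligase for NCOA4, rose from 153 and 135 CPM to 249 and 211 CPM (0.68, adjusted p = 1.96e-05); HERC2 has related pseudogenes, so its value is uncertain. PCBP1, the iron chaperone that loads ferritin, fell from 266 and 274 CPM to 182 and 209 CPM (-0.46, adjusted p = 0.000235), while its relative PCBP2 was not called (-0.15, adjusted p = 0.162) except without shUBXN1 replicate 2 (-0.27). EPAS1, which encodes the hypoxia factor HIF-2α and whose mRNA is known to carry an IRE, fell from 200 and 196 CPM to 86.7 and 89.4 CPM (-1.17, adjusted p = 1.16e-08). Its partner ARNT rose by a log2 fold change of 1.03. Among the 6 tested mRNAs outside the 10 that are known for an IRE, 2 were lower, EPAS1 among them, and 1 higher (the phosphatase gene CDC14A, 0.65). CDC14A was not called without shCon replicate 1 (0.49), without shUBXN1 replicate 2 (0.36) or by DESeq2.

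In the list of mitochondrial iron import and storage, 5 of 7 tested genes were higher and 0 lower, with a median of 0.44. Among all genes, 28% were higher and 28.2% lower. Of the 5, only SLC25A37 and SLC25A28 encode importers of iron. SLC25A37, which encodes the importer mitoferrin, rose from 33.0 and 33.2 CPM to 68.4 and 60.8 CPM (0.97, adjusted p = 2.97e-07). Its relative SLC25A28 rose less, from 14.8 and 15.3 CPM to 17.8 and 19.1 CPM (0.29, adjusted p = 0.0363), a call lost without shCon replicate 1 (0.27), without shCon replicate 2 (0.30), without shUBXN1 replicate 2 (0.22), by DESeq2 and in 2 other alternatives. TMEM14C, a carrier of heme precursors, and ABCB10, a transporter that binds mitoferrin, had log2 fold changes of 0.77 and 0.49. PPTC7, the remaining called gene of the list, had a log2 fold change of 0.44. FTMT, the mitochondrial ferritin gene, had 0 counts in all libraries. Counts on the mitochondrial genome were 5.28% and 5.59% of all counts in shCon and 7.43% and 8.27% in shUBXN1. A link of this share to this or any other list was not tested.

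For iron-sulfur cluster assembly, where mitochondrial and cytosolic machines build the cofactor, 10 of 29 tested genes were lower, 3 higher and 16 not called, with a median of -0.19. The largest called changes were those of CIAO2B (-0.67), MMS19 (-0.65) and BOLA1 (-0.51), of which CIAO2B and MMS19 belong to the cytosolic targeting complex. BOLA1 was not called without shCon replicate 2 (-0.42). In heme synthesis 4 of 8 tested genes were lower and 1 higher. FECH, which inserts iron into heme, fell from 67.3 and 64.2 CPM to 30.1 and 31.6 CPM (-1.09, adjusted p = 5.50e-08), and CPOX, which acts earlier in the same pathway, had a log2 fold change of -0.42. Among genes of heme uptake, export and breakdown, 5 of 14 tested were lower and 4 higher. HMOX1, the inducible heme oxygenase that frees iron from heme, fell from 424 and 456 CPM to 50.8 and 56.5 CPM (-3.04, adjusted p = 1.20e-11). SLC46A1, a transporter of folate and heme, rose from 4.54 and 4.68 CPM to 14.3 and 11.3 CPM (1.48), and PGRMC1, a heme-binding membrane protein, had a log2 fold change of 0.74.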

How the data were processed

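The samples were grouped by the hairpin in their titles. Per the labels, the libraries were made from total RNA of MHCC97H cells with an mRNA kit. The submitters' processing notes name HISAT2 2.0.4, StringTie 1.3.0 and GRCh37, whereas the methods name GRCh38. The authors deposited expected counts per gene to 2 decimals, not normalized, with a gene length. Counting settings and annotation release are not given in the sources used here. Of the gene IDs, 61369 (99.7%) matched GENCODE v44, from which symbols and hg38 positions were taken.

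Expected counts were rounded to whole numbers. In edgeR 4.0.16 (R 4.3.3), genes were kept by filterByExpr, libraries were scaled by TMM, and the quasi-likelihood test (glmQLFit, glmQLFTest) compared the groups without a block, with Benjamini-Hochberg adjustment over 16863 genes. Standard errors are the log2 fold change over the square root of F. Alternatives used DESeq2 1.42.0, limma 3.58.1 (voom, and log2(TPM + 1)), total counts, other filters, unrounded counts, pseudogene counts, a replicate block, GC correction and each library left out. On simulated counts for this comparison over 16453 genes, 90 of 100 genes changed 4-fold and 70 of 100 changed 2-fold were recovered, with 5 others called. Replicates differed beyond sampling noise (chi-square per degree of freedom 3.83 in shCon and 8.42 in shUBXN1).

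The 10 genes, the lists and tests were chosen with earlier results of these data known. Genes named are the 10, UBXN1 and 17 partners of the 10. Added to these, per list, are up to 3 called genes with the largest change at a mean log2 CPM above 0. IL6, TTYH1, BEST1, SMAD6, BMP2, PPTC7, STEAP4, CYBRD1 and the cell markers given as examples lie outside this rule. They were chosen after their values were seen. Some genes that the rule names are not reported here. Marker lists held hepatocyte, leukocyte, endothelial, fibroblast and erythroid genes.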

Additional observations from a re-analysis of the deposited data

How the results depend on the processing

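The fall of UBXN1, SLC11A2 and SLC40A1 kept its direction and an adjusted p under 0.05 in every alternative fit, but SLC11A2 and SLC40A1 do not pass a rule that asks for a 2-fold change. With total count scaling, where the median over the tested genes was 0.10 on the log2 scale in place of 0.016, FTH1 (0.28) and IREB2 (0.19) were called higher, NCOA4 (-0.14) was no longer called, TFRC (0.076) and ACO1 (0.081) changed sign without a call, and 2 of the 8 genes were called higher. With limma on log2(TPM + 1), FTH1 (0.25) became the 1 gene called higher, and TFRC (0.050) and ACO1 (0.052) changed sign. Without a filter on low counts FTH1 (0.19) was the 1 gene called higher. With at least 10 counts in every library TFRC was at 0.020 and ACO1 at 0.026. With the GC trend removed TFRC was at 0.027 and NCOA4 was at -0.21 and no longer called. With each library left out in turn, log2 fold changes ranged from -0.099 to 0.063 for TFRC, from 0.021 to 0.34 for FTH1, from -0.41 to -0.20 for FTL, from -0.35 to -0.13 for NCOA4 and from -0.16 to 0.13 for ACO1, and 2 to 4 of the 8 genes were called lower and 0 to 1 higher. The arm left with 1 library is there assumed to vary like the other. By the rule of a 2-fold change with p under 0.05 before adjustment, 0 of the 8 genes were lower, 1997 of all genes were higher and 1027 lower, and 5 iron genes outside the 10 were higher and 8 lower. Among the values for other named genes under the alternatives, 405 kept their side of the threshold, 21 lost it, 3 gained it and 0 changed sign. The cause of these changes was not tested.

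The replicate numbers tie no libraries by label. Deviations of same-numbered libraries correlated with r = 0.13 across genes of the 4 libraries, and a replicate block called 5000 genes higher and 5023 lower, with SLC11A2 at -0.64, and the same 4 of the 8 genes lower. For TFR2 and HAMP depth is the limit, with at most 10 counts in any library.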
